A study of Mus musculus with 8 samples.

Results

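The clustered replication-dependent histone genes were measured in dendritic cells (DC) from mouse bone marrow. Probes were taken as members when they were not array controls and the gene name in the scanner files began with Hist1h, Hist2h, Hist3h or Hist4h. This gave 46 probes of 37 gene names, of 27398 gene names on the array. By name, 6 genes were of class H1, 12 of H2A, 10 of H2B, 3 of H3 and 6 of H4.

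All cells came from male C57BL/6Jax mice and from cultures of total bone marrow grown for 7 days with GM-CSF, a growth factor that yields DC, at 40 ng/mL. The 4 groups, each with 2 arrays, were miR-155 knockout (KO) DC given 100 ng/mL lipopolysaccharide (LPS) for 16 h, unstimulated KO DC, wild-type (WT) DC given LPS, and unstimulated WT DC. LPS comes from bacterial outer membranes and triggers DC maturation through the receptor Tlr4. Stimulated DC were the adherent CD86-positive cells of a flow cytometry sort and unstimulated DC its CD86-negative cells, so every LPS comparison also compares 2 sort gates. The labels do not say whether replicates were separate animals or cultures, and the p values measure only the spread between these samples, which may be technical. The microRNA itself is not analysed here, so the genotype labels were not checked against it.

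Core histones H2A, H2B, H3 and H4 form the protein spool around which DNA is wound, and linker histone H1 binds where the DNA enters and leaves it. Most of these proteins are supplied during DNA synthesis by genes that lie in clusters, and their mRNAs end in a short stem-loop, bound by the protein Slbp, in place of a poly(A) tail. When DNA synthesis stops these mRNAs are rapidly degraded. The labels name the labelling kit (Low Input Quick Amp) but not its primer, and how well mRNAs without a tail were copied was not tested.

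Several probes read sequence that histone genes share, which sets how far single genes can be separated. Pairs of probes for different genes are printed here with their longest shared stretch in capitals. The H2A probes of Hist1h2aa (chr13:24026659-24026718, plus strand) and Hist1h2af (chr13:23626108-23626167, plus strand) shared 44 of 60 bases.
Hist1h2aa: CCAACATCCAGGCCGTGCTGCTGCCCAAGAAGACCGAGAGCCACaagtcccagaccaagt
Hist1h2af: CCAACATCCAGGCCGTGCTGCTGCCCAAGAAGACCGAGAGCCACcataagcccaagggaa
The H4 probes of Hist1h4d (chr13:23673665-23673724, plus strand) and Hist1h4f (chr13:23643249-23643308, minus strand) shared 50 bases.
Hist1h4d: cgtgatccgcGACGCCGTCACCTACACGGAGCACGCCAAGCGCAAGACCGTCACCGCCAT
Hist1h4f: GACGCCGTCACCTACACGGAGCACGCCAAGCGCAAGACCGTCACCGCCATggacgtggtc
The H2B probes of Hist1h2bk (chr13:22127928-22127987, plus strand) and Hist1h2bm (chr13:21814139-21814198, plus strand) shared 52 bases and differed at 2 of 60.
Hist1h2bk: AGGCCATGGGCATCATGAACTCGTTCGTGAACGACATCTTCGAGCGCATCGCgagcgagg
Hist1h2bm: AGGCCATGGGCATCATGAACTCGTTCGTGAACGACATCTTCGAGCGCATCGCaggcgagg
All positions are those of the files, in build mm9. In all, 13 pairs of probes from different member genes shared at least 20 bases, and they involved 12 genes. Of the 35 probes used for the tests, 13 listed more than 1 RefSeq transcript in the files and 6 listed 4. A value given here under 1 gene name may therefore include signal from near-identical genes.

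Of the 46 probes, 38 were well above background on all 8 arrays and 2 on none. Values are the scaled log2 signal, which is the log2 of the scanner's processed signal minus the 75th percentile of that array, and they are compared within a gene only. A probe passed if, in 1 group or more, both arrays gave a signal well above background, and each gene was tested through its brightest such probe. That left 35 of the 37 genes. Hist1h2al, above background on 0 arrays, and Hist1h2be, on 1, did not pass. The tested probes of 31 genes were well above background on all 8 arrays. All 11 DC marker genes, among them Itgax, Cd74, Zbtb46 and Flt3, were well above background on every array.

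The first question was how these genes differed between LPS-treated and unstimulated DC of each genotype. In WT, 23 of the 35 tested genes fell after LPS and 0 rose, with limma's moderated test at an adjusted p under 0.05. Over all 15400 genes tested, 10.6% fell and 9.55% rose in that comparison. In KO, 17 of 35 fell and 0 rose, against 10.5% falling and 10.3% rising of all genes. The 17 genes called in KO were all among the 23 called in WT. The median log2 difference of the 35 genes was -1.38 in KO and -1.74 in WT, against 0.05 and 0.01 for all genes. With dim genes set at the bounds given further on, the medians were -1.29 in KO and -1.72 in WT. Both LPS arrays lay below both unstimulated arrays for 24 of 35 genes in KO (30.6% of all genes) and for 25 of 35 in WT (31.8% of all genes).

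**Figure D1:**
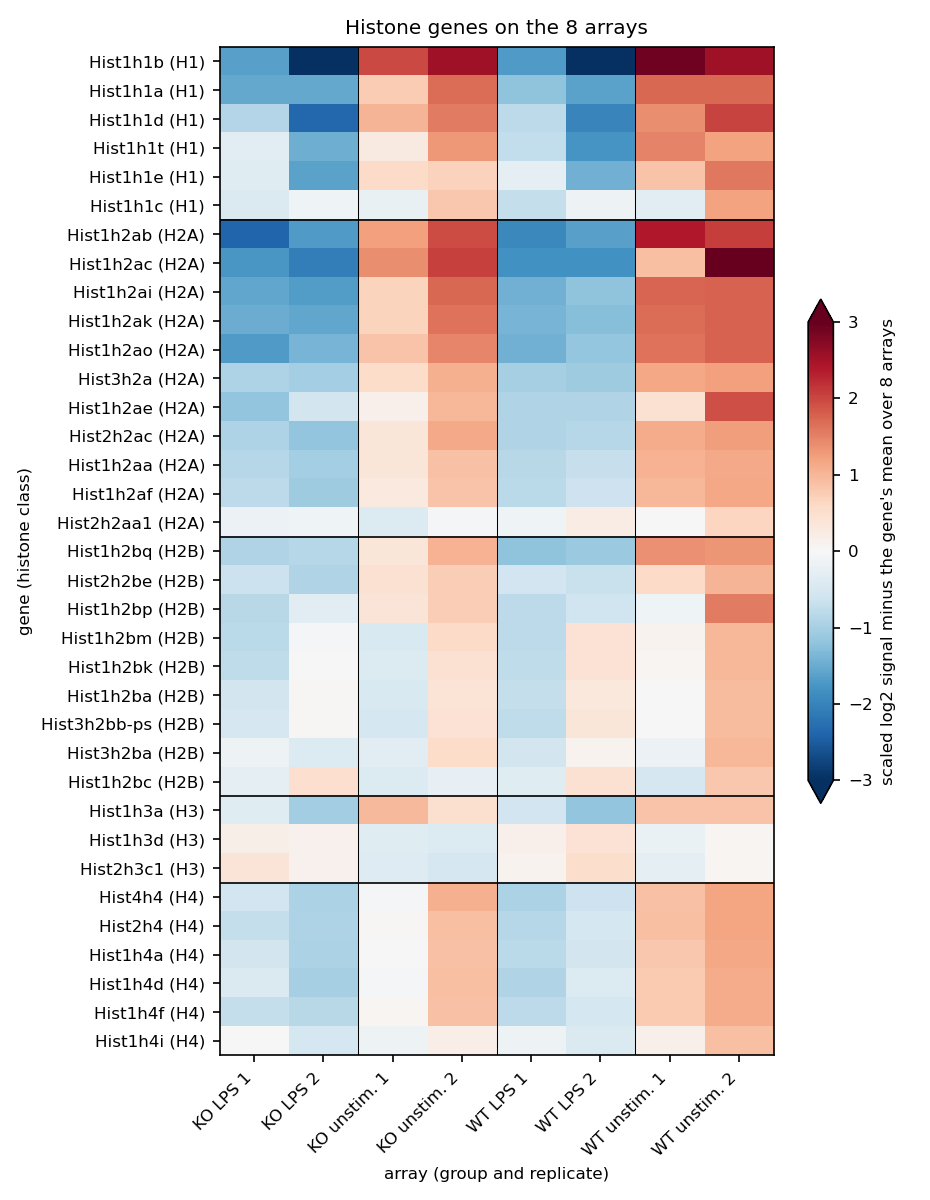
Heat map of the 35 tested histone genes (rows, by class and by the size of the WT difference) on the 8 arrays (columns, by group and replicate). Colour is the scaled log2 signal minus that gene's mean over the 8 arrays, with colours capped at 3 and -3. Most H1, H2A and H4 genes are blue on the 4 LPS arrays and red or near white on the unstimulated arrays, while most H2B genes and 2 of the 3 H3 genes do not divide this way.

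Of 6 linker histone genes, 3 fell in KO and 5 fell in WT, with medians of -2.21 and -2.85, and 1 of them had the largest difference among the 35. Hist1h1b, a linker histone H1 gene, had scaled log2 signals of -1.23 and -3.06 in KO LPS cells, against 2.38 and 2.94 in unstimulated KO cells. The WT values were -1.30 and -2.76 after LPS, against 3.33 and 2.96 unstimulated. The groups did not overlap in either genotype, and the 2 arrays of each LPS group differed from each other by over 1 log2 unit. Hist1h1b fell by 4.80 ± 0.69 in KO (SE, adjusted p = 0.00457) and by 5.17 ± 0.69 in WT (adjusted p = 0.00384). Its probe lies at chr13:21871923-21871982 on the minus strand.
Hist1h1b: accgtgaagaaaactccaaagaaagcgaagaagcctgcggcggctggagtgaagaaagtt

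Hist1h1a had -4.40 and -4.41 in KO LPS cells, against -2.12 and -1.20 in unstimulated KO cells. WT cells gave -4.08 and -4.48 after LPS, against -1.15 and -1.14 unstimulated. The gene fell by 2.74 ± 0.35 in KO and by 3.14 ± 0.35 in WT, more tightly than Hist1h1b. Hist1h1d fell by 2.91 ± 0.60 in KO (adjusted p = 0.0167) and by 3.09 ± 0.60 in WT (adjusted p = 0.0143). Hist1h1e was called in WT only, with log2 differences of -1.63 ± 0.54 in KO (adjusted p = 0.0801) and -2.08 ± 0.54 in WT (adjusted p = 0.0385).

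The testis-type linker histone gene Hist1h1t was not well above background on any LPS array. Its signal was at least 1.65-fold lower after LPS in KO, without a call (adjusted p = 0.0786), and at least 2.17-fold lower in WT (adjusted p = 0.0194). These bounds set the mean of the bright group against, for each dim array, the higher of the gene's own signal and the lowest signal well above background. Hist1h1c was the H1 gene without a call in either genotype, at -0.58 ± 0.58 in KO and -0.86 ± 0.58 in WT. Its unstimulated arrays were far apart, at 3.20 and 4.25 in KO and 3.08 and 4.63 in WT, so that this error could not resolve a difference of that size.

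Among the H2A genes, 9 of 11 fell in KO and 10 of 11 fell in WT, with medians of -1.81 and -2.23. Hist1h2ab had 0.49 and 1.16 in KO LPS cells, against 4.09 and 4.82 in unstimulated KO cells. In WT cells it had 0.93 and 1.23 after LPS, against 5.27 and 4.93 unstimulated. All LPS arrays lay well below all unstimulated arrays. The gene fell by 3.63 ± 0.37 in KO (adjusted p = 0.00124) and by 4.02 ± 0.37 in WT (adjusted p = 0.00104). Hist1h2ac, dim on all 4 LPS arrays, fell at least 3.29-fold in KO (adjusted p = 0.0107) and at least 3.59-fold in WT (adjusted p = 0.00969).

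Hist1h2ai, Hist1h2ak and Hist1h2ao formed a narrow band, falling by 2.69 to 2.80 in KO and by 2.99 to 3.08 in WT. The probes of Hist1h2ai and Hist1h2ak share 26 bases, so their values may not be separate results. Hist1h2ao, for example, had 4.72 and 5.03 in KO LPS cells, against 7.28 and 7.88 in unstimulated KO cells. The WT values were 4.97 and 5.27 after LPS, against 8.04 and 8.19 unstimulated. The groups were well separated in both genotypes. Smaller falls were called for Hist3h2a (1.78 ± 0.27 in KO and 2.23 ± 0.27 in WT), Hist2h2ac (1.81 ± 0.32 in KO and 2.05 ± 0.32 in WT), Hist1h2aa (1.56 ± 0.27 in KO and 1.85 ± 0.27 in WT) and Hist1h2af (1.51 ± 0.29 in KO and 1.80 ± 0.29 in WT). Hist1h2ae was called in WT only, at -1.44 ± 0.54 in KO (adjusted p = 0.109) and -2.10 ± 0.54 in WT (adjusted p = 0.0367).

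Hist2h2aa1, an H2A gene of the cluster on chromosome 3, was the H2A gene called in neither genotype. It had 3.01 and 3.05 in KO LPS cells, against 2.77 and 3.12 in unstimulated KO cells. WT cells gave 3.05 and 3.40 after LPS, against 3.18 and 3.83 unstimulated. On the probe used for the gene the groups overlapped, unlike on its other probes, given further on. The log2 difference was 0.08 ± 0.32 in KO (adjusted p = 0.886) and -0.28 ± 0.32 in WT (adjusted p = 0.576). Its probe and those of Hist1h2ai and Hist1h2ak cover the start of the H2A coding sequence, and they are printed with the initiation codon in capitals.
Hist1h2ai: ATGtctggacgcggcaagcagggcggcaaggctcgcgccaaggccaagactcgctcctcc
Hist1h2ak: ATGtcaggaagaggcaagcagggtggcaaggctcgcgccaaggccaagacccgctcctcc
Hist2h2aa1: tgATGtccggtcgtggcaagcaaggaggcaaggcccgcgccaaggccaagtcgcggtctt
Over the 58 bases they have in common from that codon, Hist1h2ai and Hist1h2ak differed at 5 positions, and Hist2h2aa1 differed from Hist1h2ai at 10 and from Hist1h2ak at 11. The files place these probes at chr13:21879028-21879087 (minus strand), chr13:21845637-21845696 (minus strand) and chr3:96049502-96049561 (plus strand), and the probe of Hist1h2ai lists 4 RefSeq transcripts.

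Far fewer H2B genes were called, 2 of 9 in each genotype, against 10.5% of all genes falling in KO and 10.6% in WT. Hist1h2bq had -4.36 and -4.32 in KO LPS cells, against -3.10 and -2.43 in unstimulated KO cells. In WT cells it had -4.68 and -4.59 after LPS, against -2.10 and -2.15 unstimulated. The groups did not overlap, and the gene fell by 1.57 ± 0.29 in KO (adjusted p = 0.0115) and by 2.51 ± 0.29 in WT (adjusted p = 0.00223). Hist2h2be fell by 1.38 ± 0.28 in KO and by 1.41 ± 0.28 in WT (adjusted p = 0.0153 in both).

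The H2B probes printed above, which differ at 2 bases, had similar values and were not called. Hist1h2bk had 2.54 and 3.28 in KO LPS cells, against 2.87 and 3.74 in unstimulated KO cells. The WT values were 2.54 and 3.72 after LPS, against 3.36 and 4.28 unstimulated. LPS and unstimulated arrays overlapped in both genotypes. Hist1h2bk had a log2 difference of -0.40 ± 0.56 in KO and -0.69 ± 0.56 in WT, and Hist1h2bm had -0.49 ± 0.58 in KO and -0.72 ± 0.58 in WT. Hist1h2bc, another H2B gene, had 0.44 ± 0.52 in KO and -0.12 ± 0.52 in WT. The errors of Hist1h2bk and Hist1h2bm exceed their differences in KO and are somewhat smaller than those in WT. These values therefore do not show that the genes stayed level. Hist1h2ba, Hist3h2ba and the pseudogene Hist3h2bb-ps had -0.39 to -0.20 in KO and -0.67 to -0.64 in WT and were not called. The Hist3h2bb-ps probe differed from that of Hist1h2bk at 3 of the 58 bases they have in common. The values of Hist1h2bk, Hist1h2bm and Hist3h2bb-ps may therefore not be separate results. Hist1h2bp, dim on 3 of 4 LPS arrays, was not called either. It had -1.16 ± 0.53 in KO (adjusted p = 0.178) and was at least 2.16-fold lower in WT (adjusted p = 0.114), where 1 of 2 unstimulated arrays was well above background. The median of the 9 H2B genes was -0.40 in KO and -0.69 in WT, and with the slide as a block it was 0.07 in KO and -0.19 in WT.

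Among the 3 H3 genes, Hist1h3a fell by 1.45 ± 0.36 in KO (adjusted p = 0.0312) and by 1.74 ± 0.36 in WT (adjusted p = 0.0174), and was well above background on 1 of 2 WT LPS arrays. The other two were not called and had positive values. Hist1h3d had 6.28 and 6.23 in KO LPS cells, against 5.73 and 5.70 in unstimulated KO cells. WT cells gave 6.26 and 6.54 after LPS, against 5.89 and 6.16 unstimulated. Every LPS array lay above the unstimulated arrays of its genotype, but the log2 difference was only 0.54 ± 0.25 in KO (adjusted p = 0.183) and 0.38 ± 0.25 in WT (adjusted p = 0.334). Hist2h3c1 had 0.71 ± 0.28 in KO (adjusted p = 0.123) and 0.43 ± 0.28 in WT (adjusted p = 0.32). The probes of Hist1h3d (chr13:23667979-23668038, plus strand) and Hist2h3c1 (chr3:96051157-96051216, plus strand) share 17 bases, in capitals.
Hist1h3d: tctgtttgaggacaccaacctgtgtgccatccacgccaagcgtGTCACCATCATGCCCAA
Hist2h3c1: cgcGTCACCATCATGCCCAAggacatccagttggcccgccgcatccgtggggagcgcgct

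Of 6 H4 genes, 2 fell in KO and 5 fell in WT. The probes of Hist1h4d, Hist1h4f and Hist2h4 share 29 to 50 bases in each pair. Hist2h4 had 4.30 and 4.07 in KO LPS cells, against 5.04 and 5.92 in unstimulated KO cells. In WT cells it had 4.16 and 4.48 after LPS, against 5.90 and 6.18 unstimulated. The gene fell by 1.29 ± 0.35 in KO (adjusted p = 0.0422) and by 1.72 ± 0.35 in WT (adjusted p = 0.0169). Hist1h4f fell by 1.24 ± 0.34 in KO (adjusted p = 0.0422) and by 1.60 ± 0.34 in WT (adjusted p = 0.0186). Hist1h4d was called in WT only, at -1.13 ± 0.41 in KO and -1.60 ± 0.41 in WT, although 50 of its 60 probe bases are those of the Hist1h4f probe. Hist1h4a (-1.18 ± 0.36 in KO and -1.68 ± 0.36 in WT) and Hist4h4 (-1.28 ± 0.41 in KO and -1.81 ± 0.41 in WT) were likewise called in WT only. Hist1h4i was not called in either, at -0.29 ± 0.36 in KO and -0.82 ± 0.36 in WT.

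**Figure D2:**
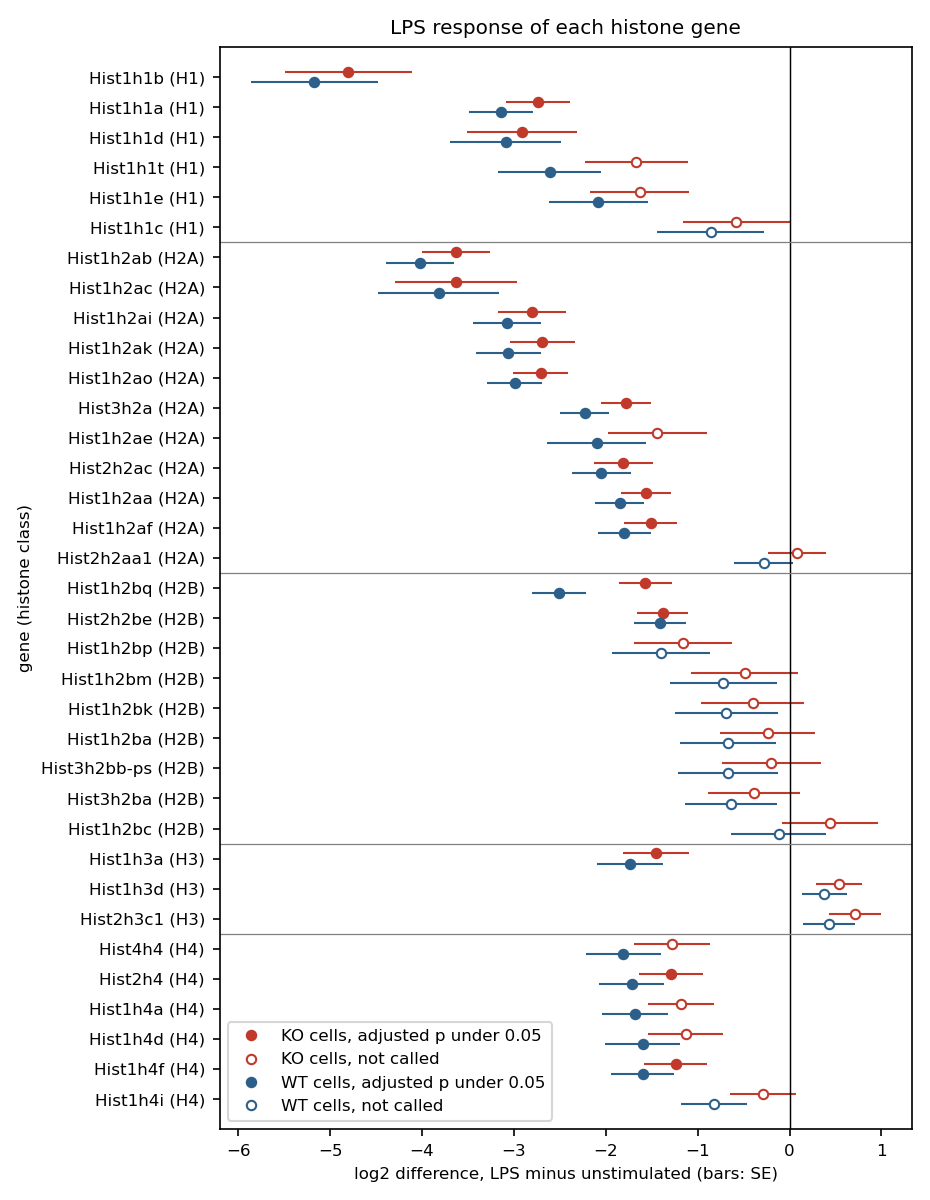
Log2 difference, LPS minus unstimulated, of each tested histone gene in KO (red) and WT (blue) cells, with standard errors from the fit (2 arrays per group). Filled points passed an adjusted p of 0.05 and open points did not. Hist1h1b lies farthest left at -4.80 in KO and -5.17 in WT, and Hist1h3d and Hist2h3c1 lie right of 0 in both.

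The counts depended on single arrays and on the background correction. Counts over all genes under these settings are not given here, so a lower histone count is not set against a general loss of calls. Without KO LPS replicate 2 or KO unstimulated replicate 2, 7 and 8 of 35 genes were called in KO. Without WT LPS replicate 2 or WT unstimulated replicate 2, 12 were called in WT. Slide 2 held both KO LPS arrays and 1 unstimulated KO array, and the histone median of the KO response within it was -1.03. Slide 1 held 1 WT LPS array and both unstimulated WT arrays, and the histone median of the WT response within it was -1.64. In each of these fits 1 array stands for a group and is assumed to vary like the others, and the medians are those of leaving out the array on the other slide. With the slide as a block over all arrays, 15 were called in KO and 18 in WT. With normexp background correction, 9 were called in KO and 7 in WT, and in KO the values of Hist1h2ac (0.96), Hist1h2bq (0.68) and Hist1h3a (0.80) were positive and not called.

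Of the 8 genes with several probes, some gave different answers by probe. Hist3h2a was measured by probes 567 bases apart. The probe used for the gene (chr11:58768387-58768446, plus strand) fell by 1.78 ± 0.27 in KO and by 2.23 ± 0.27 in WT. The other probe (chr11:58768954-58769013, plus strand) had 2.56 and 2.82 in KO LPS cells, against 2.41 and 2.35 in unstimulated KO cells, and 2.42 and 2.89 in WT LPS cells, against 2.06 and 3.36 in unstimulated WT cells. Its log2 differences of 0.31 ± 0.44 in KO and -0.05 ± 0.44 in WT were not called.

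For Hist1h2af the probe used for the gene fell by 1.51 in KO and by 1.80 in WT, while a probe 308 bases upstream fell by 2.96 ± 0.36 in KO and by 3.37 ± 0.36 in WT. The upstream probe shares 40 bases, in capitals, with the probe of Hist1h2ak, which fell by 2.69 in KO and by 3.06 in WT.
Hist1h2af, upstream probe (chr13:23625800-23625859, plus strand): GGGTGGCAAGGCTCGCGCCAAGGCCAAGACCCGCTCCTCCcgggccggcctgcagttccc
Hist1h2ak (chr13:21845637-21845696, minus strand): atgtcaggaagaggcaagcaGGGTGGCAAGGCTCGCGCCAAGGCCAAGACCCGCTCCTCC
The values of the upstream probe thus stood nearer to those of the probe with which it shares sequence than to those of the other probe of its own gene, as a description with no test.

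Hist1h1d also differed by probe, with a second probe 1751 bases away that was not called, at -0.95 ± 0.56 in KO and -1.96 ± 0.56 in WT. Of the 2 probes of Hist4h4, one was dim on all 8 arrays and was not tested. The 2 probes each of Hist1h2bk and Hist2h2ac gave the same calls as one another in both genotypes. None of the 3 probes of Hist2h2aa1 was called, but their values differed. The probes not used for that gene had LPS arrays below the unstimulated arrays in both genotypes. One had -0.69 ± 0.24 in KO and -0.64 ± 0.24 in WT. The other, well above background on 3 arrays, had -0.71 ± 0.28 in KO and -0.65 ± 0.28 in WT. For Hist1h4d the second probe was called in KO (adjusted p = 0.0417) where the first was not.

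**Figure D3:**
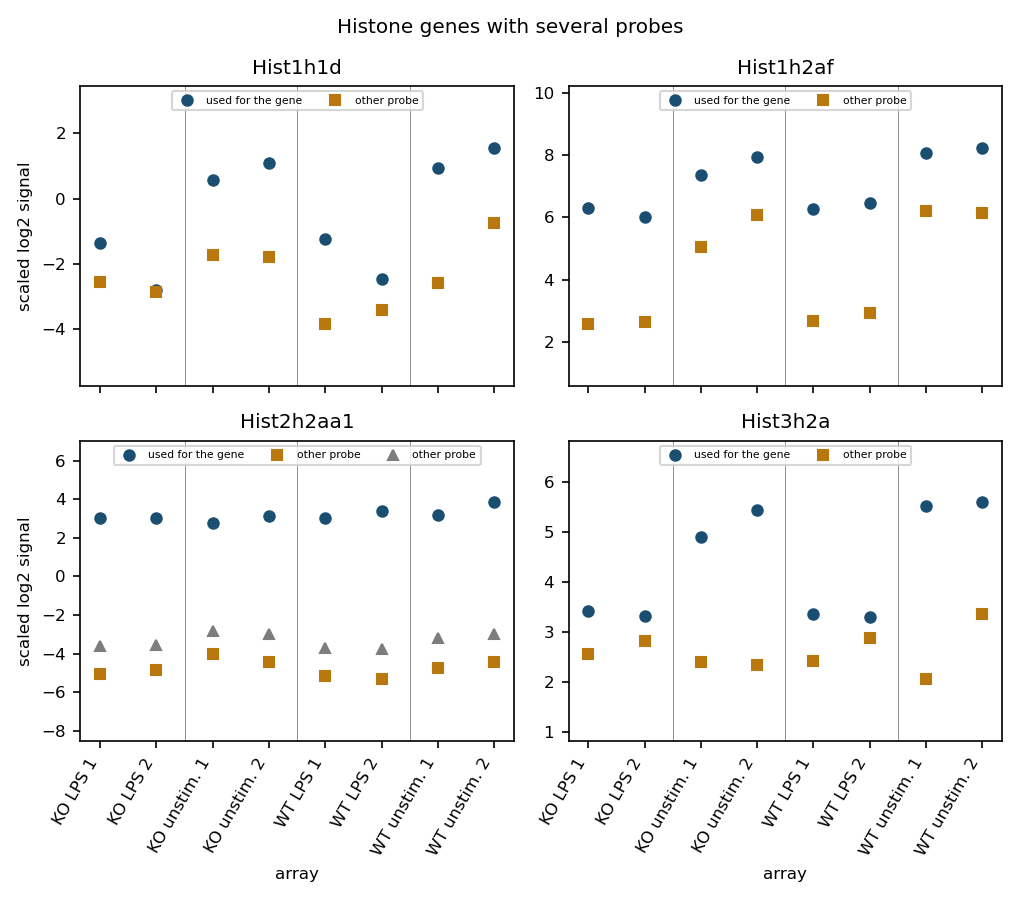
Scaled log2 signal on each of the 8 arrays for the probes of 4 histone genes that carry several. Blue circles are the probe used for the gene, and orange squares and grey triangles its other probes. In Hist3h2a the probe used for the gene is lower on the LPS arrays and the other probe is not, and in Hist1h2af both are lower on the LPS arrays by different amounts.

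The stem-loop that marks these mRNAs could be found in the probe sequences by searching for an inverted repeat of 6 bases around a loop of 4. The whole repeat of 16 bases stood in the probe of Hist1h3a, followed by 3 bases, and this was the only one of all non-control probes on the array to hold it. The probe of Hist1h2ab ended within the repeat, with 11 of its bases. The probe of Hist1h2ae began within the repeat, with 12 of its bases, and ran 48 bases beyond it. Parts of the probes are printed with the repeat in capitals.
Hist1h3a (chr13:23853756-23853815, minus strand): aaccaaaGGCTCTTTTCAGAGCCaca
Hist1h2ab (chr13:23843392-23843451, plus strand): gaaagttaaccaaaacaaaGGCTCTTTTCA
Hist1h2ae (chr13:23662489-23662548, minus strand): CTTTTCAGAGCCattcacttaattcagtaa
The probe of Hist1h2ae was well above background on all 8 arrays. It had -4.45 and -3.81 in KO LPS cells, against -3.10 and -2.27 in unstimulated KO cells, and -4.15 and -4.15 in WT LPS cells, against -2.80 and -1.31 in unstimulated WT cells. A probe with most of its bases beyond the repeat thus gave signal in all 4 groups.

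RefSeq promoters of build GRCm38.p6, 250 bases before to 50 after the start, were available for 31 of the 37 genes. They were searched on both strands for 3 motifs. CCAAT was in 28 of 31 genes, against 37.4% of all 32851 promoters of the same length. TATAAA was in 20 of 31, against 13.6% of all. ATTTGCAT, the octamer bound by Pou2f1, was in 10 of 31, against 1.74% of all, and it stood in 6 of 11 H2A and 4 of 7 H2B promoters and in none of the 6 H1, 2 H3 and 5 H4 promoters. No matches of different motifs overlapped in these promoters. Promoters are printed for the H1 and H2A genes with the largest falls and for an H2B gene that was not called, with motif matches on either strand in capitals.
Hist1h1b (chr13:21780576-21780875, minus strand): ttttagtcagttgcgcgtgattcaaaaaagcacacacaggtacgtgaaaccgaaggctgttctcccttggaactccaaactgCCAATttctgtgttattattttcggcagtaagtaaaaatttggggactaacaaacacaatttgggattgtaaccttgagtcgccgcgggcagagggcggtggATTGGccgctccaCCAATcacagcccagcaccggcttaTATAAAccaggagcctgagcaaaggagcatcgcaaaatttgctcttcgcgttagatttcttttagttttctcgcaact
Hist1h2ab (chr13:23750838-23751137, plus strand): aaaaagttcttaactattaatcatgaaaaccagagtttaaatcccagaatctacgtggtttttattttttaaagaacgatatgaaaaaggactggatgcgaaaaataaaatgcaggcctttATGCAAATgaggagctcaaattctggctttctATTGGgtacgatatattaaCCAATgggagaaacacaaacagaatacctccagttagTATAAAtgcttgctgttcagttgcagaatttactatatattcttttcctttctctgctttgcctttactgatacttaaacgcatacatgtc
Hist1h2bk (chr13:22035571-22035870, plus strand): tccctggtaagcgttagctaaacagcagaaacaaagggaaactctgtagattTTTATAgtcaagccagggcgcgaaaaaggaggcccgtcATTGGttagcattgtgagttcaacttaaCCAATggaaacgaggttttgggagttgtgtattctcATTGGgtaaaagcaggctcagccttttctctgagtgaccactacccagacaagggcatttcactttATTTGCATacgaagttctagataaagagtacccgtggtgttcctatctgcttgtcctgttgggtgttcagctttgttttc

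Hist1h2ab and Hist1h2bk, picked for printing by their responses, both held all 3 motifs. Hist1h2ab had log2 differences of -3.63 in KO and -4.02 in WT, and Hist1h2bk had -0.40 in KO and -0.69 in WT. The Hist1h2bk probe differs from that of Hist1h2bm at 2 of 60 bases, so its value may include signal from that gene. A link between motifs and response was not tested. Promoter windows of opposite strand overlapped in 2 pairs of members. Hist1h2ao and Hist1h2bq shared 267 bases and both fell in both genotypes. With normexp the KO value of Hist1h2bq was positive and not called. The Hist1h2ao probe shares 28 bases with that of Hist1h2af and 26 with that of Hist1h2aa. The promoter windows of Hist1h2aa and Hist1h2ba shared 220 bases. Hist1h2aa fell in both genotypes, while Hist1h2ba was not called, at -0.24 ± 0.52 in KO and -0.67 ± 0.52 in WT. The Hist1h2aa probe shares 44 bases with that of Hist1h2af, so its signal cannot be assigned to this promoter alone. A motif match describes letters in these windows and no binding was measured.

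Of 11 tested histone genes outside the clusters, 2 fell in KO and 4 fell in WT, against 10.5% and 10.6% of all genes, with medians of 0.04 and -0.09. Cenpa, the histone H3 variant of centromeres, had -1.52 and -0.43 in KO LPS cells, against 1.45 and 2.30 in unstimulated KO cells, and -1.40 and -1.36 in WT LPS cells, against 1.80 and 2.46 in unstimulated WT cells. It fell by 2.85 ± 0.47 in KO (adjusted p = 0.00754) and by 3.51 ± 0.47 in WT (adjusted p = 0.00384). H2afj fell by 1.25 in KO and by 1.47 in WT. H2afz (-1.13 in KO and -1.51 in WT) and H2afx (-0.96 in KO and -1.11 in WT), which supply H2A variants, were called in WT only. The replacement H3 genes H3f3a (0.53 in KO and -0.01 in WT) and H3f3b (0.73 in KO and 0.42 in WT) and the linker gene H1f0 (0.15 in KO and -0.09 in WT) were not called.

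None of the 21 tested genes for histone mRNA processing and turnover was called in either genotype, with medians of 0.01 in KO and -0.08 in WT. Slbp, the stem-loop binding protein, had 3.0 and 2.73 in KO LPS cells, against 3.18 and 2.59 in unstimulated KO cells, and 2.67 and 2.59 in WT LPS cells, against 3.43 and 2.70 in unstimulated WT cells. Its log2 difference was -0.02 ± 0.35 in KO and -0.43 ± 0.35 in WT, and that of Casp8ap2, a histone locus body protein, was -0.41 in KO and -0.43 in WT. Of 14 genes for histone gene transcription, 1 fell in each genotype, against 10.5% of all genes in KO and 10.6% in WT. The gene that fell was Ccne2, a cyclin partner of Cdk2, by at least 6.93-fold in KO and at least 4.80-fold in WT. In WT only 1 of 2 unstimulated arrays was well above background for Ccne2, at -1.32 and -4.29, so that bound rests partly on a dim array. Npat, the coactivator of clustered histone genes, had -0.36 ± 0.47 in KO and -0.27 ± 0.47 in WT and was not called.

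Of 21 histone chaperone and assembly genes, 4 fell and 1 rose in each genotype. Of all genes, 10.5% fell and 10.3% rose in KO, and 10.6% fell and 9.55% rose in WT. Asf1b, a chaperone of H3 and H4, fell by 3.15 ± 0.46 in KO and by 3.03 ± 0.46 in WT. The chromatin assembly factor subunits Chaf1a (2.48 in KO and 2.03 in WT) and Chaf1b (2.54 in KO and 1.94 in WT) also fell, as did Hira, which deposits replacement H3 (0.86 in KO and 0.85 in WT). Daxx, another replacement H3 chaperone, rose by 2.0 in KO and by 2.04 in WT. Nasp, a chaperone of H1 and of H3 with H4, was not called, at -0.72 in KO and -1.02 in WT.

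The lists of this paragraph stand against 10.5% of all genes falling and 10.3% rising in KO, and 10.6% and 9.55% in WT. DNA replication genes numbered 36, of which 23 fell in KO and 14 fell in WT, with medians of -1.81 and -1.70. Tk1, the thymidine kinase of S phase, fell by 4.25 in KO and by 3.84 in WT, and Gmnn, an inhibitor of replication licensing, fell by 2.04 in KO and by 2.27 in WT. Pcna, the replication clamp, was not called, at -1.01 ± 0.41 in KO and -0.85 ± 0.41 in WT. Of 18 mitosis genes, 15 fell in each genotype, with medians of -3.78 in KO and -3.42 in WT, or -3.60 and -3.04 with 1 dim gene at its bound. Aurkb fell by 3.92 in KO and by 3.76 in WT. Mki67, a proliferation marker, was not called, at 0.70 ± 0.48 in KO and -0.52 ± 0.48 in WT. Of 9 cell cycle inhibitors, Cdkn2b rose by 4.11 in KO and by 3.60 in WT, and Cdkn2c fell by 2.40 in KO and by 2.32 in WT.

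**Figure D4:**
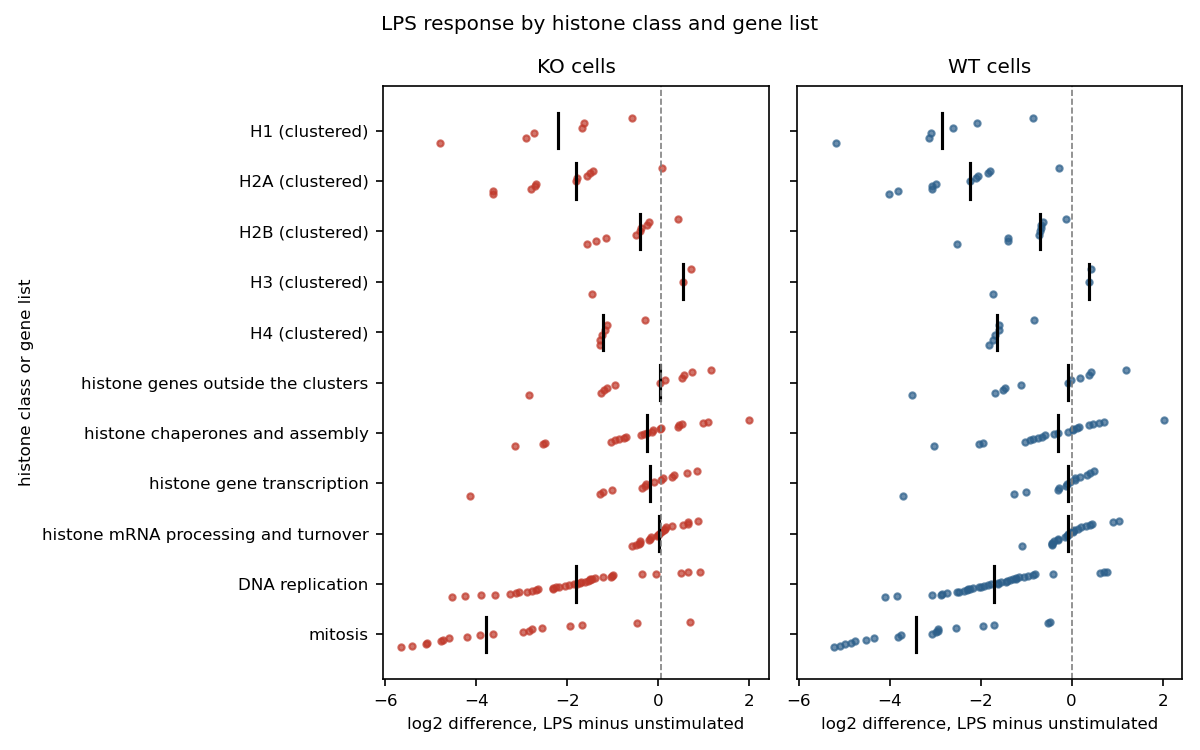
Log2 difference, LPS minus unstimulated, of each tested gene (points) in the 5 histone classes and in 6 other gene lists, in KO (left) and WT (right) cells. Black bars are medians of fitted values, and the dashed line is the median of all 15400 genes. The medians of clustered H1, H2A and H4 genes lie on the side of the replication and mitosis lists, and those for histone mRNA processing, transcription and chaperones lie near the dashed line.

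Markers of other cell types moved with the same comparison. Their counts stand against 10.5% of all genes falling and 10.3% rising in KO, and 10.6% and 9.55% in WT. Of 11 macrophage and monocyte markers, 6 fell and 1 rose in each genotype, and their mean scaled log2 signal lay between 0.94 and 2.13 in KO LPS cells, against 3.22 to 3.48 in unstimulated KO cells, and between 1.20 and 1.51 in WT LPS cells, against 3.20 to 3.64 in unstimulated WT cells. On the log2 scale of the summed signal these markers ranged from 7.49 to 8.53 in KO LPS cells, against 7.91 to 8.15 in unstimulated KO cells, and from 8.11 to 8.23 in WT LPS cells, against 7.68 to 8.34 in unstimulated WT cells. Cd163 was not well above background on any LPS array. Of the 5 tested mast cell and basophil markers 3 fell in each genotype, and of 2 eosinophil markers 1 fell in KO and 2 fell in WT. Of 4 tested stromal markers 2 rose in each genotype, and of 3 erythroid markers 1 rose. Of 5 neutrophil markers and of 3 T and NK cell markers, 1 rose and 1 fell in each genotype. Of 3 B cell markers 1 fell in each genotype and 1 rose in KO. Of the 11 DC markers, Cd86 and Ccr7 rose and 0 fell. The sort gates were set on CD86, so the rise of Cd86 is no independent result. The part of other cells in the histone differences was not tested. In bulk RNA, fewer cells of a type and less RNA per cell cannot be told apart.

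The next comparison was KO against WT in unstimulated DC. None of the 35 histone genes was called by limma, with 0 at an unadjusted p under 0.05, and 0.234% of all genes were called. The fitted value was negative for all 35 genes, from -0.65 for Hist1h2ab to -0.11 for Hist1h3a, with a median of -0.50, and it was negative for 55.6% of all genes. Hist1h2ab had 4.09 and 4.82 in unstimulated KO cells, against 5.27 and 4.93 in unstimulated WT cells. Its groups did not overlap, but the gap between them was smaller than the spread within KO. Both KO arrays lay below both WT arrays for 14 of the 35 genes, against 12.9% of all genes.

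The 2 unstimulated KO arrays were themselves apart. The median of the 35 genes was 2.87 on replicate 1 and 3.56 on replicate 2, and 32 of 35 genes were higher on replicate 2. The median difference from WT was -0.81 without KO unstimulated replicate 2 and -0.12 without KO unstimulated replicate 1. It was -0.67 without WT unstimulated replicate 1 and -0.23 without WT unstimulated replicate 2, so arrays of both genotypes moved its size. With the slide as a block the median was -0.27. A value within slide 1 alone uses the same arrays as leaving out KO unstimulated replicate 1, with 1 KO array. The 35 values come from the same arrays and are not independent of each other.

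After LPS, 0 of the 35 genes were called between KO and WT, 0 had an unadjusted p under 0.05, and 0.026% of all genes were called. The median was -0.11, with a range from -0.30 for Hist1h2ai to 0.37 for Hist1h1t, which was dim in both groups. With normexp the median was -0.58, and with the slide as a block it was 0.08. Averaged over both states, 0 histone genes were called and 0 had an unadjusted p under 0.05, against 0.149% of all genes, and the median was -0.29, or -0.10 with the slide as a block and -0.54 with normexp.

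**Figure D5:**
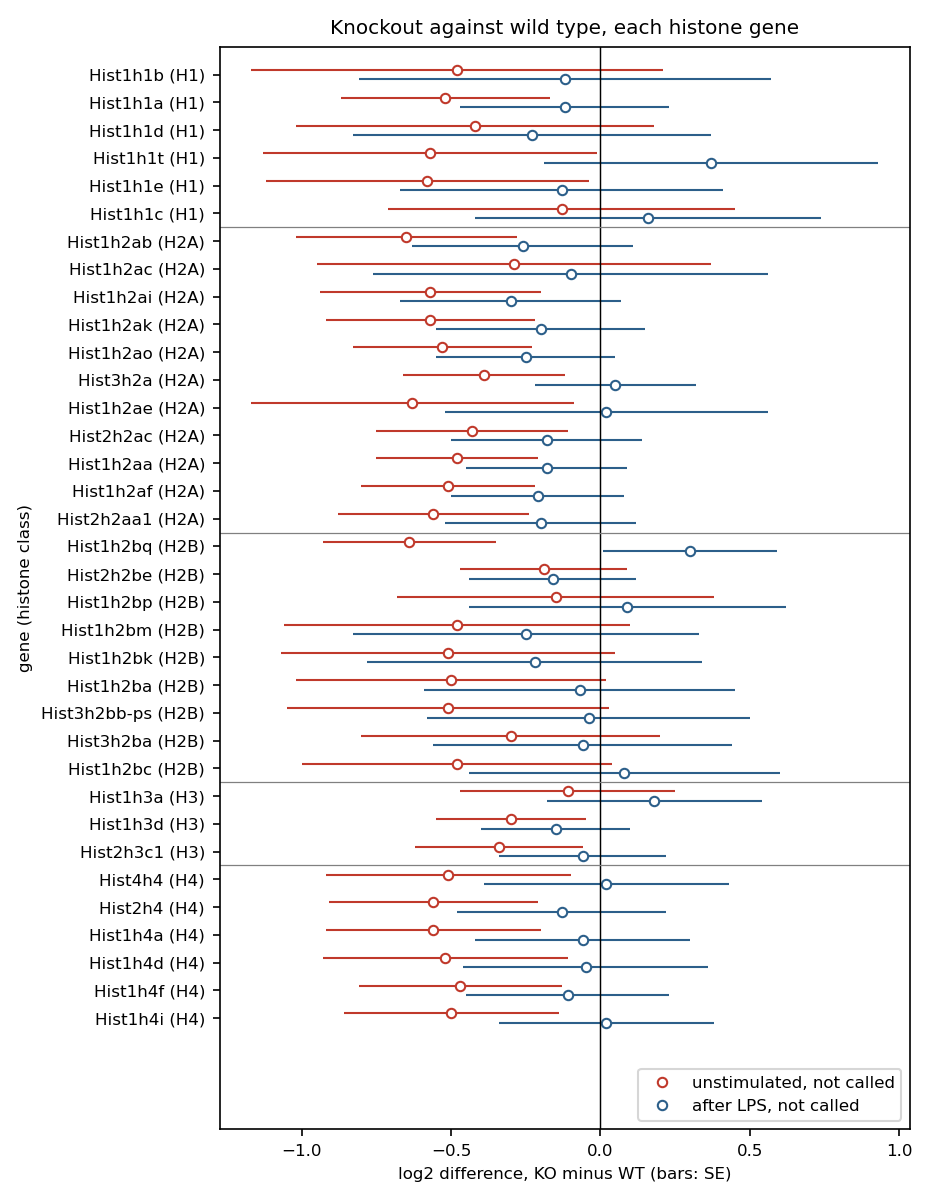
Log2 difference, KO minus WT, of each tested histone gene in unstimulated cells (red) and after LPS (blue), with standard errors from the fit (2 arrays per group). All points are open because no gene passed an adjusted p of 0.05. The unstimulated values all lie left of 0, between -0.65 and -0.11, and the values after LPS lie between -0.30 and 0.37.

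The last comparison asked whether KO and WT cells differed in their LPS response. No histone gene was called, with 0 of 35 at an unadjusted p under 0.05, against 0.0455% of all genes called. All 35 differences were positive, from 0.02 for Hist2h2be to 0.94 for Hist1h1t and Hist1h2bq, with a median of 0.36. Over all genes the median was 0.04, and 44.4% of the differences were negative. This comparison is built from the same arrays as those before it. Its histone median was -0.01 without KO unstimulated replicate 1 and 0.71 without KO unstimulated replicate 2. It was 0.64 without WT unstimulated replicate 1 and 0.17 without WT unstimulated replicate 2. With normexp it was -0.13. Hist1h1e, Hist1h1t, Hist1h2ae, Hist1h4a, Hist1h4d and Hist4h4 were called in WT and not in KO, and none of them was shown to respond differently by this test.

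Replicates of a group also differed by class. In LPS-treated cells the median H1 level was -1.29 and -2.94 on the 2 KO arrays and -1.28 and -2.60 on the 2 WT arrays. The median H2B level was 1.80 and 2.40 on the same KO arrays and 1.65 and 2.68 on the WT arrays. In both genotypes the LPS array of replicate number 2 was thus lower for H1 and higher for H2B than that of number 1. Over all genes the second principal component, with 9.55% of the variance, separated the arrays of the 2 replicate numbers, and the first, with 75.57%, separated LPS from unstimulated arrays.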

How the data were processed

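RNA of 8 samples was measured on Agilent one-colour arrays whose probes have 60 bases. Scans were read by the authors in Feature Extraction 10.5.1.1 and annotated on mm9, per the file headers. The deposited intensity values are a background-subtracted processed signal, a mean signal and a local background, with no scaling across arrays. Other columns, deposited as spot flags of 0 or 1, mark signals well above background, saturation and outliers. The series table deposited by the authors holds log2 values. Checked against the scanner values, it was the log2 processed signal plus a constant for each array.

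Each array had 45018 spots, 1639 of them controls, with 50.81% to 58.27% of spots well above background and 0 saturated. Outlying spots (120 to 174 per array) were left out. Samples were grouped by their labels. The log2 processed signal minus the array's 75th percentile entered a linear model in limma 3.58.1 (R 4.3.3) with 1 mean for each of 4 groups, over 15400 genes, 47 of them with a missing value. Tests were two-sided, with Benjamini-Hochberg adjustment over all genes and a threshold of 0.05. Precision is limited by having 2 arrays in a group: an exact permutation test of 2 against 2 arrays cannot give a p below 0.333. The fit was run on simulated data with independent noise of the same size for every gene. That run had no slide or replicate effect, so it does not show how the errors behave on these arrays.

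Slide 1 held KO unstimulated replicate 2, WT LPS replicate 2 and both unstimulated WT arrays, and slide 2 held the other four. Alternatives were normexp background correction (offset 50), quantile normalization, median centring, the deposited table, other filters and probe rules, slide and replicate blocks, single slides, and leaving out each array.

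Genes named are those called in any comparison, the 3 brightest of each class, those whose probes gave different calls, a set of histone regulators, and the leading called genes of each list. Hist2h2aa1, Hist1h2ba, Hist1h2bp, Hist3h2ba, Hist3h2bb-ps and Hist1h4i fall outside this rule and were named after their values were seen, to account for every member. Members and lists were chosen with earlier results of these data known. All 37 member names matched a RefSeq gene by symbol, synonym or accession.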

Additional observations from a re-analysis of the deposited data

How the results depend on the processing

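In the LPS response of WT, 23 of the 35 histone genes were called. The count was 7 with normexp background correction, 11 within slide 1, and 12 to 23 when each array was left out in turn, lowest when replicate 2 of WT LPS or of unstimulated WT was left out. The median of -1.74 was -1.20 with normexp and -1.88 to -1.58 with an array left out. In the LPS response of KO, 17 genes were called. The count was 9 with normexp, and with each array left out in turn it was lowest without KO LPS replicate 2. The median of -1.38 was -1.69 to -1.03 with an array left out. With normexp, Hist1h2ac (0.96), Hist1h2bq (0.68) and Hist1h3a (0.80) had positive values in KO, none of them called. Each single slide leaves 1 array in a group, so no conclusion is drawn from a count within it. The KO count within slide 2 is not printed, and it was lower than every KO count given here. The medians within a slide are those of leaving out the array on the other slide. The cause of the change with normexp was not tested. The other scalings and filters and the slide block kept both counts within 1.5 times.

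Between genotypes, 0 histone genes were called under every alternative run. The medians with an array left out ran from -0.81 to -0.12 in unstimulated cells, from -0.24 to 0 after LPS, from -0.47 to -0.11 averaged over both states, and from -0.01 to 0.71 for the difference between responses. With normexp the median was -0.58 after LPS, -0.54 averaged over both states and -0.13 for the difference between responses. With the slide as a block it was -0.27 in unstimulated cells, 0.08 after LPS and -0.10 averaged over both states, and slide 1 held 1 KO and 3 WT arrays.

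Replicate numbers are shared across groups. Deviations of same-numbered arrays from their group means correlated at 0.01 to 0.69 across genes, all positive, with only 2 numbers. The second principal component also separated the 2 numbers. The main fit did not take same-numbered arrays as pairs, so its errors include any difference between the numbers. With a replicate block, 20 genes were called in KO and 24 in WT, with medians of -1.38 and -1.74, and 0 between genotypes. Of the genes called in WT only, the block called Hist1h2ae, Hist1h4a and Hist4h4 in KO as well (limma, adjusted p = 0.035, 0.0481 and 0.0498) and did not call Hist1h1e, Hist1h1t or Hist1h4d there. Low signal limits Hist1h1t, Hist1h2ac and Hist1h2bp in LPS-treated cells, for which only bounds or partial measurements exist.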
